A study of Mus musculus with 4 samples.

Results

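Glutathione transferases were followed in heart ventricles of mouse embryos that lacked the histone deacetylase HDAC2 (KO) and of wild-type littermates (WT). The family is represented by 10 genes, Gstt1, Gstt2, Gstt3, Gsta4, Gstm1, Gstm2, Gstm5, Gstp1, Gsto1 and Mgst1, out of 18193 genes that a probe set names alone. They were chosen because the measured signal of Gstt2 is higher in KO, and the other 9 genes were taken as its relatives. The differences between KO and WT in these genes are therefore a description, with no p-value given, and a call among them supports nothing. Every probe set that the platform annotation assigns to 1 of these genes only was used, 15 of the 45037 on the array, each built from 11 probe pairs. Transcripts were measured on 4 one-colour Affymetrix MOE430v2 arrays, 2 from KO and 2 from WT, at embryonic day 17.5. Both groups came from a cross of C57BL/6 and SV129. Each KO array took RNA from 3 pooled animals and each WT array from 2, so a pool, not an embryo, is the replicate, and pool size goes with genotype. The labels give neither the allele nor the cells in which Hdac2 was removed, nor the sex of the embryos.

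Glutathione transferases join the tripeptide glutathione to reactive electrophiles such as oxidised lipids, aldehydes and drug metabolites, which are then exported from the cell. The soluble enzymes are grouped by sequence into classes, here theta, alpha, mu, pi and omega, while Mgst1 belongs to a separate family of membrane proteins. In heart muscle, with its many mitochondria, they are known for clearing products of lipid peroxidation. Many of their genes respond to NRF2, a transcription factor that is activated by oxidative and electrophile stress.

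The arrays were checked first. The source field of both KO samples carries the abbreviation for wild type, but the brightest Hdac2 probe set, 1445684_s_at, read 31.4 and 21.0 in KO against 1189 and 1421 in WT, at least 50.6-fold lower. All 10 cardiomyocyte markers were Present on every array. Their summed signals were 111334 and 118384 in KO and 116312 and 114133 in WT. Some other tissue markers did move with genotype. Over all tested genes, 0.481% passed the test (adjusted p under 0.05 in limma) as higher in KO and 0.815% as lower. Of 10 skeletal muscle markers, 8 passed the test as lower in KO, none passed as higher, and their sums were 1194 and 1174 in KO against 12912 and 12062 in WT. Of 8 fibroblast markers, 2 were lower, Col1a1 (-0.73) and Col1a2 (-0.55), and none was higher. Of 4 tested bone and cartilage markers, 3 were lower. Of 5 erythroid markers named alone by a probe set, 3 were tested and 1, the embryonic globin Hbb-y, was higher. No tested marker of cardiomyocytes, endothelium, macrophages, smooth muscle, epicardium, brown adipocytes or hepatocytes passed. Hepatocyte markers, of interest because liver is rich in these enzymes, summed to 148 and 117 in KO and 155 and 165 in WT, with Afp and Apoa1 Present on no array. The erythroid sums were 620 and 649 in KO and 550 and 469 in WT, with Hba-a1 and Epb42 Present on no array. Xist, from the inactive X chromosome, read 548 and 794 in KO against 80.5 and 90.1 in WT, and the Y-linked Eif2s3y read 240 and 126 against 431 and 449. The ratio of the 3' to the 5' probe set of actin, which rises as RNA breaks down, was 2.75 and 2.42 in KO and 1.85 and 2.32 in WT. The part of these shifts in the values below was not tested, and in such bulk tissue a change in cell numbers and a change in RNA per cell cannot be told apart.

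Gstt2, a theta-class enzyme that acts on organic hydroperoxides and sulfate esters, is the gene that led to the choice of the family. Its single probe set, 1417883_at, read 76.2 and 103 in KO and 15.5 and 26.3 in WT on the MAS5 signal scale. Both KO signals lay above both WT signals, and the gene was called Present on both KO arrays and Absent on both WT arrays. The detection p-values, from the deposited comparison of matched and mismatched probes on each array, were 0.0376 and 0.0142 in KO and 0.466 and 0.246 in WT. The mean log2 difference, KO minus WT, was 2.13 ± 0.34 (moderated standard error, SE, n = 2 arrays per group), or 4.39-fold between the measured signals. Single KO arrays exceeded single WT arrays by 1.53 to 2.73 on the log2 scale, against a gap of 0.43 between the KO arrays and 0.76 between the WT arrays. Because Gstt2 was not detected in WT, it entered the tested set through its KO arrays alone.

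**Figure D1:**
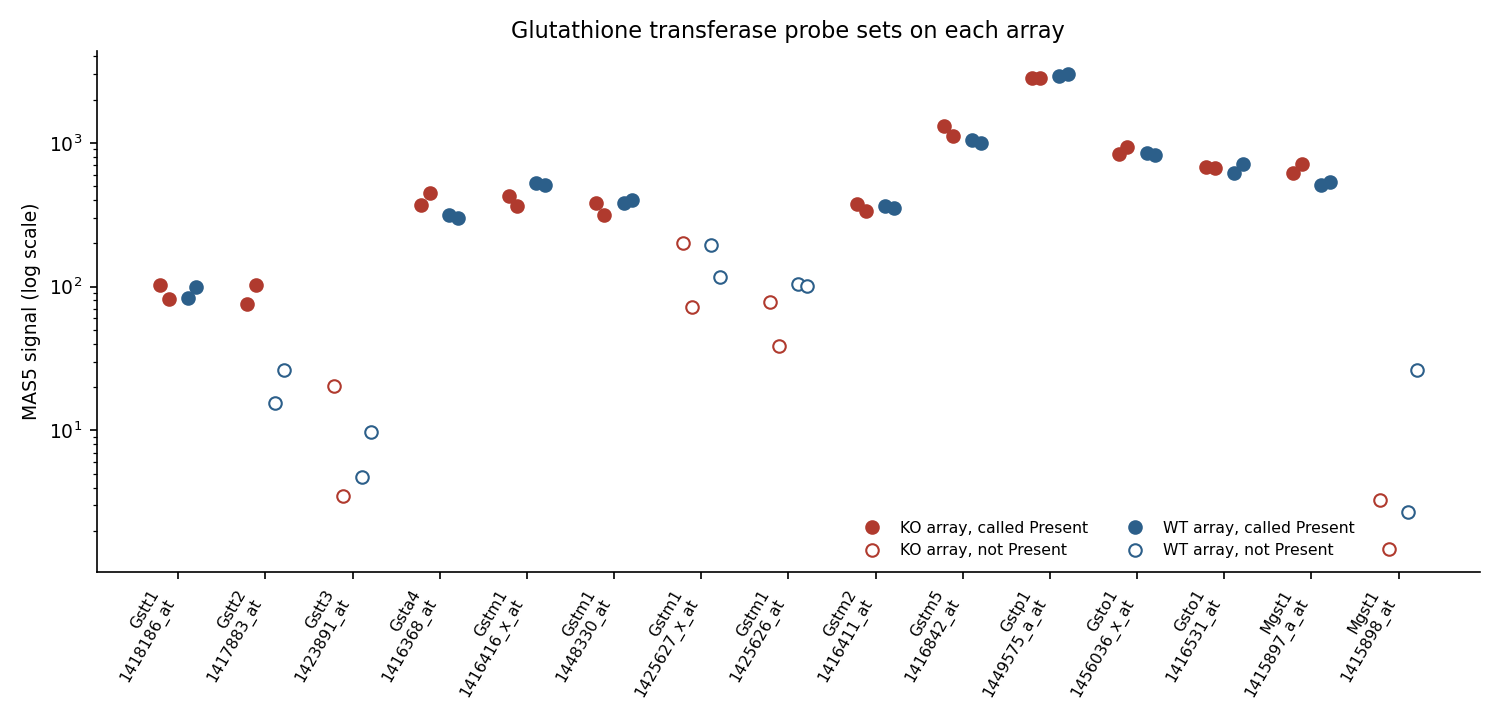
MAS5 signal on a log scale (vertical axis) for the 15 probe sets of the 10 genes, with 2 KO arrays (red, left) and 2 WT arrays (blue, right) each. Filled points were called Present and open points were not; Gstt2 at 76.2 and 103 in KO against 15.5 and 26.3 in WT is the one probe set that is filled in KO and open in WT.

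A second deposited readout gave a smaller difference for Gstt2. The signal log ratio compares each array, probe pair by probe pair, with a baseline array that the sources used here do not name. It read 1.1 and 1.5 in KO and -0.5 and 0.1 in WT, a difference of 1.5 on the log2 scale. Both KO values lay above both WT values. They come from the same arrays that led to the choice of Gstt2, so this order is no separate support.

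The other theta genes did not share this pattern. Gstt1, which conjugates small halogenated alkanes, read 102 and 81.3 in KO and 83.2 and 98.5 in WT at 1418186_at. The groups overlapped, all 4 arrays called it Present, and the log2 difference was 0.01 ± 0.23. The sign turned in the signal log ratio (-0.25), with median centring and when either replicate 1 array, KO or WT, was left out. Gstt3, a close relative of Gstt1, read 20.5 and 3.5 in KO and 4.7 and 9.7 in WT, was Absent on all 4 arrays and was not tested. Its KO arrays differed from each other by 2.55 on the log2 scale, far more than the 0.33 between the group means.

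The theta genes lie side by side on chromosome 10, which also carries Hdac2, and their neighbours were read as a second view of the same stretch. The 8 nearest protein-coding genes on each side were taken by gene order from the mouse gene table of assembly GRCm38.p6. Of these 16 genes, 13 are named alone by a probe set and 8 were tested. None passed the threshold in limma in either direction, where 0.481% of the 10184 tested genes were higher and 0.815% were lower, and 3 of the 8 had an unadjusted p under 0.05, against 15.6% of all tested genes. The 8 differences ran from -0.91 to 0.40, with 2 positive, 6 negative and a median of -0.24, against 55.7% positive and a median of 0.03 over all tested genes. Mif, which encodes a secreted cytokine and lies next to Gstt2, read 6325 and 6050 in KO and 7069 and 6474 in WT (-0.13 ± 0.09, adjusted p = 0.505 in limma). Ddt, its homologue next to Gstt3, read 323 and 337 in KO and 413 and 378 in WT (-0.26 ± 0.14, adjusted p = 0.393 in limma). Both KO signals of Mif and of Ddt lay below both WT signals, as did those of Chchd10, Gucd1, Snrpd3 and Lrrc75b. Over all tested probe sets, 22.5% had this order. Smarcb1 had the reverse order, which 25% of all tested probe sets had, and the groups of Mmp11 overlapped. Chchd10, a mitochondrial protein, read 5363 and 5008 in KO and 6183 and 5846 in WT (-0.21 ± 0.09, adjusted p = 0.272 in limma). Gucd1 read 266 and 268 in KO and 392 and 312 in WT (-0.39 ± 0.16, adjusted p = 0.260 in limma). The spliceosome protein Snrpd3 stood at -0.49 ± 0.21 and Lrrc75b at -0.91 ± 0.48 (adjusted p = 0.281 and 0.389 in limma). The positive differences were those of Smarcb1, a subunit of the SWI/SNF chromatin remodelling complex (0.10 ± 0.14), and of the matrix metalloproteinase Mmp11 (0.40 ± 0.30), with adjusted p of 0.756 and 0.546 in limma. Ggt5, Susd2, Cabin1, Derl3 and Vpreb3 were not tested, and Ggt1, Gm867 and Gm5134 are named alone by no probe set. The remaining theta gene of the cluster, Gstt4, was Absent on all 4 arrays.

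**Figure D2:**
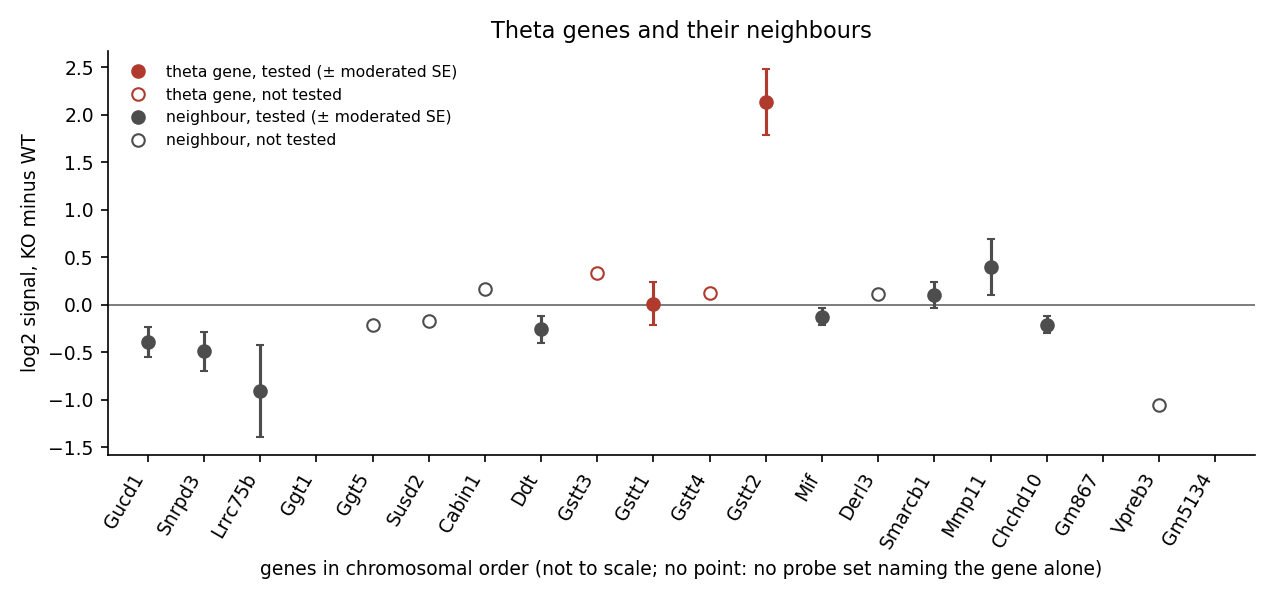
Log2 signal in KO minus WT (vertical axis) for the theta genes (red) and the 8 nearest protein-coding genes on each side (grey), in chromosomal order. Filled points were tested and carry the moderated SE, and open points were not; Gstt2 stands at 2.13 while the tested neighbours lie between -0.91 and 0.40.

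Genes whose 4 signals followed Gstt2 most closely were found by the distance between log2 deviations from each probe set's own mean, over 4 arrays and 16668 tested probe sets of other genes. The nearest was Cap1, an actin-regulating protein, at 1417462_at, with 177 and 246 in KO and 43.9 and 52.8 in WT (distance 0.35). Next came Amacr, a racemase of branched-chain fatty acids, with 113 and 175 in KO and 33.1 and 57.3 in WT (distance 0.47). Glrb, a glycine receptor subunit, Rpl37a, a ribosomal protein, and Hbb-y followed at distances of 0.49 to 0.67. These 5 are the smallest distances by choice, each at the closest tested probe set of its gene. Cap1, Rpl37a and Hbb-y have other probe sets on the array, whose distances are not given here. For scale, the tested relatives of Gstt2 lay at 1.84 (Gsta4) to 2.64 (Gstm1 at 1416416_x_at). Glrb and Hbb-y, at these probe sets, were Absent on both WT arrays, so like Gstt2 they entered the tested set through KO alone. The signal log ratio comes from the same arrays, so it is no separate support for genes picked by this pattern. In it, Cap1, Amacr, Glrb and Hbb-y differed by 1.85, 0.95, 1.70 and 2.25, and Rpl37a by -0.40.

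Gsta4, the alpha-class enzyme that conjugates 4-hydroxynonenal, a main aldehyde of lipid peroxidation, read 367 and 444 in KO and 314 and 300.2 in WT at 1416368_at. The groups did not overlap, and the log2 difference was 0.40 ± 0.15. The gap between the KO arrays, 0.28, was about as wide as the smallest gap between a KO and a WT array, 0.23. Mgst1, the membrane-bound enzyme of the endoplasmic reticulum and outer mitochondrial membrane, read 613 and 712 in KO and 509 and 531 in WT at 1415897_a_at. Its groups did not overlap either, with a log2 difference of 0.35 ± 0.13. Its other probe set, 1415898_at, was Present on no array, with 3.3 and 1.5 in KO and 2.7 and 26.2 in WT, and gives no usable difference.

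The mu-class genes, neighbours on chromosome 3, did not move one way. Gstm1, the main mu enzyme of mouse liver, has 4 probe sets, of which 2 were detected. At 1416416_x_at it read 423 and 362 in KO and 526 and 509 in WT, a log2 difference of -0.40 ± 0.14 with no overlap. At 1448330_at it read 379 and 316 in KO and 382 and 400 in WT (-0.18 ± 0.15), where KO replicate 1 came within 0.01 of WT replicate 1 on the log2 scale. The undetected probe sets 1425627_x_at and 1425626_at stood at -0.32 and -0.90, which give no usable difference. The ending _x_at marks probes that can also match other sequences. Gstm2 read 375 and 335 in KO and 365 and 350 in WT (-0.01 ± 0.14), and the groups overlapped. Gstm5 read 1308 and 1118 in KO and 1048 and 1000.1 in WT (0.24 ± 0.12), with both KO signals above both WT signals.

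Gstp1, the pi-class enzyme, varied little between arrays. It read 2812 and 2812 in KO and 2902 and 2987 in WT at 1449575_a_at, a log2 difference of -0.07 ± 0.09. The KO signals lay below the WT signals, but the gap was small and turned to 0.10 in the signal log ratio. Gstp2, a close copy that no probe set names alone, could share this signal. Gsto1, the omega-class enzyme, which reduces dehydroascorbate and works through a cysteine, has 2 probe sets. The brighter, 1456036_x_at, read 837 and 940 in KO and 844 and 816 in WT (0.10 ± 0.12). The other, 1416531_at, read 679 and 673 in KO and 614 and 715 in WT (0.03 ± 0.13). The groups overlapped at both.

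Promoter windows show which of these genes carry the sequences that NRF2 and the related AP-1 factors are known to recognise. RefSeq windows of build GRCm38.p6, 250 bases before to 50 after each start, were held for 8 of the 10 genes, 11 windows in all, with none for Gstt2 and Gsta4. Both strands were searched for the core of the antioxidant response element, TGACNNNGC, found in 12.5% of 27025 promoters of the same length, and for the AP-1 site TGANTCA, found in 7.93%. The first was in the windows of Gstm5 and Mgst1 and the second in those of Gstm5 and Gstp1, with no overlap between matches. The match of Mgst1 is in 1 of its 2 windows, whereas the shares above count only the first window of each gene. A match is a string of letters and not a measured site. Printed 5′ to 3′, with the matches in capitals, are these 3 windows and that of Gstt1, the detected theta relative of Gstt2, which holds neither string. They lie at chr3:107895604-107895903 (plus strand) for Gstm5, chr6:138140277-138140576 (plus) for Mgst1, chr19:4037863-4038162 (minus) for Gstp1 and chr10:75797682-75797981 (minus) for Gstt1.
Gstm5: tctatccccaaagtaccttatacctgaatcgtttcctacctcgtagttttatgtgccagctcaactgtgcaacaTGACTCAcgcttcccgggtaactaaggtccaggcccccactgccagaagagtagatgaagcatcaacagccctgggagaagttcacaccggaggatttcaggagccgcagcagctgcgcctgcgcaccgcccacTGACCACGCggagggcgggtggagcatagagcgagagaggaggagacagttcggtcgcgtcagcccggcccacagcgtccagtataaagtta
Mgst1: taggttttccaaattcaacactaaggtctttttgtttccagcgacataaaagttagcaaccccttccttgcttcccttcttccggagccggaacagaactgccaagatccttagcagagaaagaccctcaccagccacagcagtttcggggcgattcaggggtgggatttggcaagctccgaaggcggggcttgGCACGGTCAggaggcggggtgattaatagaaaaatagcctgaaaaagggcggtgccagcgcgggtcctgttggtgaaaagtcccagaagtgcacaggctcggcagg
Gstp1: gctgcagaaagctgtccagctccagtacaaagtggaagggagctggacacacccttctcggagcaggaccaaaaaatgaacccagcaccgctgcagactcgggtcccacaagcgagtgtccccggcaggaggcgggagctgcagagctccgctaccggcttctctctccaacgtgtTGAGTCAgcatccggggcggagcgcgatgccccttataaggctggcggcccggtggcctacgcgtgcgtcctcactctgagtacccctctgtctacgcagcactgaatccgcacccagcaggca
Gstt1: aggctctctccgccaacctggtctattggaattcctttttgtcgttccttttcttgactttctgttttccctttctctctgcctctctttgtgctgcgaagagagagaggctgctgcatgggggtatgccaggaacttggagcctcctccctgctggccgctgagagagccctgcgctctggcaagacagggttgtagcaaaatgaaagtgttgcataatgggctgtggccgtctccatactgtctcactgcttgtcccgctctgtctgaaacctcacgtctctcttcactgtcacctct

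The differences of the genes with these windows were of both signs. Gstm5 and Mgst1, with the response element core, had differences of 0.24 and 0.35, and Gstp1, with the AP-1 string alone, had -0.07. Of the genes with neither string in their windows, Gstt1 stood at 0.01, Gsto1 at 0.10, Gstm2 at -0.01, Gstm1 at -0.40 and the undetected Gstt3 at 0.33. Bases outside the windows were not searched, and a link between the strings and the differences was not tested.

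Across the family, 11 of the 15 probe sets, from 9 of the 10 genes, were Present on both arrays of a group and so were tested. The 4 others were Gstt3, 2 of Gstm1 and 1 of Mgst1. Of the 11, Gstt2 alone passed the threshold of adjusted p under 0.05 in limma, as higher in KO, where the share over the whole array was 1.34% in either direction, 0.383% higher and 0.96% lower. That contrast chose the family, so nothing is read from the count. The groups did not overlap at 7 of the 11 probe sets. KO lay above WT at 4, against 25% of all tested probe sets, and below WT at 3, against 22.5%. The 4 include Gstt2, and the 3 are both tested probe sets of Gstm1 and the probe set of Gstp1. Nothing is read from these counts either. The median log2 difference of the 11 was 0.03, against 0.01 over all tested probe sets. Apart from Gstt2, every one lay between the 5th and the 95th percentile of all tested probe sets, -0.59 and 0.45. The SE ran from 0.09 at Gstp1 to 0.34 at Gstt2.

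**Figure D3:**
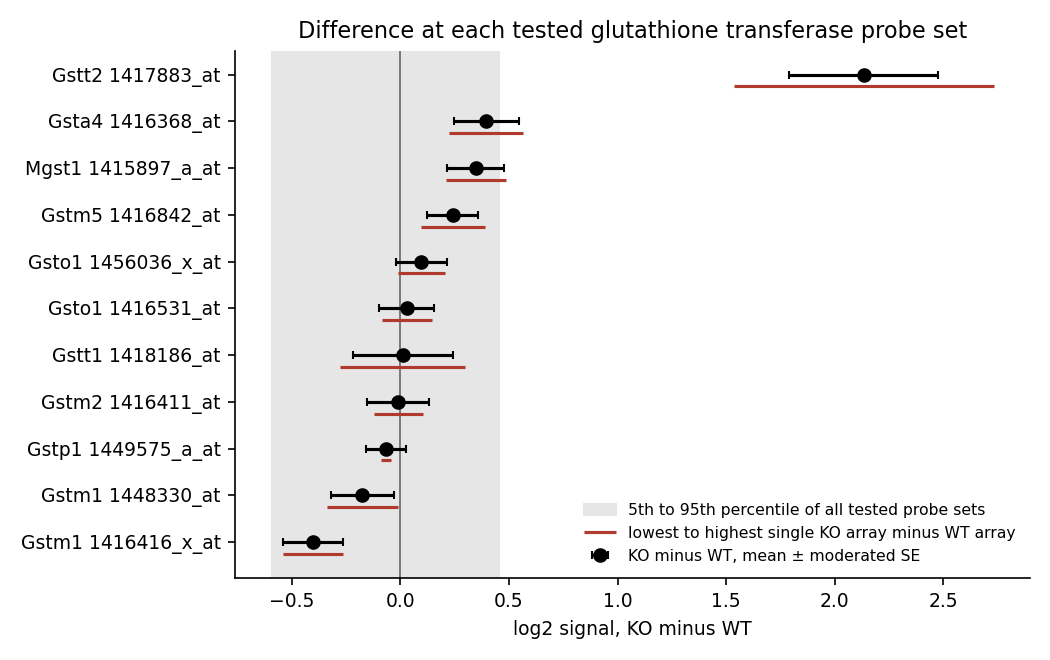
Log2 signal in KO minus WT (horizontal axis) for the 11 tested probe sets, as the mean with its moderated SE (black) and the range over single pairs of arrays (red). The grey band spans -0.59 to 0.45, the 5th to the 95th percentile of all 19065 tested probe sets; Gstt2, at 2.13, lies outside it and the other 10 lie inside.

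Under the 14 alternatives tried, Gsta4, Mgst1, Gstm5, Gsto1 and Gstm1 kept their sign. Gsta4 stayed between 0.26 and 0.53, Mgst1 between 0.24 and 0.45, Gstm5 between 0.13 and 0.35, Gsto1 between 0.01 and 0.18 and Gstm1 between -0.52 and -0.29. Gstm2 turned sign in the signal log ratio and when WT replicate 1 or KO replicate 2 was left out. Gstt2 stayed positive, between 0.85 with an offset of 64 added to each signal and 2.51 without WT replicate 2. The offset shrinks differences between dim signals. Of these 13, the call of Gstt2 was lost in the signal log ratio, without a variance trend, without the filter on detection and without KO replicate 2.

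**Figure D4:**
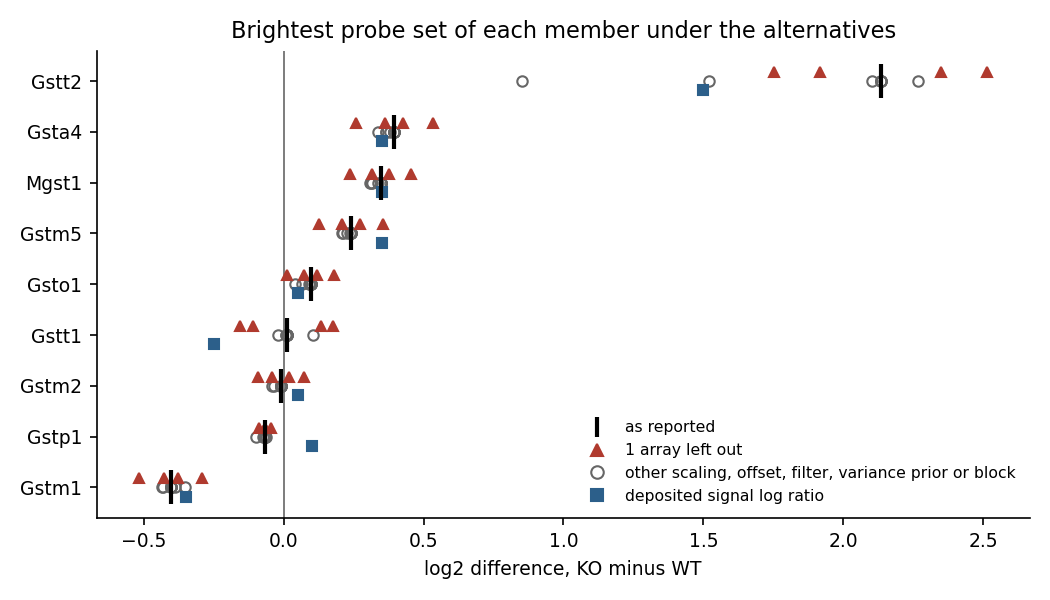
Log2 difference, KO minus WT (horizontal axis), at the brightest tested probe set of 9 genes, as reported (black bar) and under each alternative (triangles for 1 array left out, circles for other settings, squares for the deposited signal log ratio). Gstt2 ranges from 0.85 to 2.51 without crossing 0, while Gstt1, Gstm2 and Gstp1 cross it.

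Other genes of glutathione and redox metabolism were read in 6 lists, 107 genes in all, of which 95 are named alone by a probe set and 68 were tested at their brightest probe set. None passed the threshold in limma, 0 higher and 0 lower, where 0.481% and 0.815% of all tested genes did. At an unadjusted p under 0.05 there were 7, 4 higher and 3 lower, where 15.6% of all tested genes were under it. The median difference of the 68 was 0.05, against 0.03 over all 10184 tested genes, and 40 were positive, where 55.7% of all tested genes were. Without KO replicate 1, the pentose phosphate enzyme Taldo1 (0.67, adjusted p = 0.0173 in limma) and the glutaredoxin Glrx (0.63, adjusted p = 0.0356) passed as higher and the NRF2 relative Nfe2l1 (-0.74, adjusted p = 0.0124) as lower. That fit assumes that the lone KO array varies like the WT arrays, and 1.29% of all tested genes passed in it as higher and 2.02% as lower.

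Among further glutathione transferases and relatives, 8 of 22 were tested, 4 with a positive and 4 with a negative difference, with none at an unadjusted p under 0.05. Gstm7, another mu enzyme, was closest, with 204 and 194 in KO and 263 and 239 in WT (-0.33 ± 0.16, adjusted p = 0.342 in limma). Its dimmer tested probe set, 1425946_at, had the other sign, 0.12 ± 0.21 (adjusted p = 0.825 in limma), with overlapping groups. Gstk1, the kappa enzyme of mitochondria and peroxisomes, stood at 0.27 ± 0.18 (adjusted p = 0.505 in limma) and the microsomal Mgst3 at -0.18 ± 0.13 (adjusted p = 0.527 in limma). KO and WT signals overlapped for Gstk1 and Mgst3. Of the 22, 11 had a probe set but were not detected on both arrays of either group, among them Gsta2, Gsta3, Gstm3, Gstt4 and Mgst2.

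In synthesis and breakdown of glutathione, 8 of 15 were tested, 6 positive and 2 negative, with a median of 0.18. Slc3a2, the heavy chain of the cystine transporter, read 428 and 447 in KO and 337 and 347 in WT (0.35 ± 0.14, adjusted p = 0.239 in limma). Its partner chain in this list, Slc7a11, was not tested. Ggct, which splits gamma-glutamyl amino acids, stood at 0.54 ± 0.26 (adjusted p = 0.340 in limma). Gclm, the regulatory subunit of the rate-limiting ligase, disagreed between its probe sets. At the brighter 1418627_at it stood at -0.53 ± 0.26 (adjusted p = 0.347 in limma), with overlapping groups. At 1439050_at it stood at 0.38 ± 0.25 (adjusted p = 0.482 in limma), with both KO signals above both WT signals. The catalytic subunit Gclc, chosen after its values were seen, had 0.06 ± 0.23 at the brighter 1424296_at and 0.72 ± 0.22 at 1455959_s_at (adjusted p = 0.927 and 0.132 in limma).

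Of 17 peroxidases, glutaredoxins and NADPH sources, 14 were tested, 9 positive and 5 negative, with a median of 0.07. Glrx read 464 and 614 in KO and 400.4 and 396 in WT (0.42 ± 0.15, adjusted p = 0.207 in limma). Gpx4, the peroxidase of membrane lipids, read 2453 and 2476 in KO and 2987 and 2734 in WT (-0.21 ± 0.10, adjusted p = 0.313 in limma). Idh1, a cytosolic source of NADPH, stood at 0.30 ± 0.14 (adjusted p = 0.334 in limma). For conjugate export and aldehyde disposal, 8 of 15 were tested, with a median of 0.06. The closest were the formaldehyde enzyme Adh5 (0.22 ± 0.11), the conjugate pump Abcc1 (-0.35 ± 0.27) and the glyoxalase Glo1 (0.14 ± 0.12), with adjusted p of 0.378, 0.566 and 0.603 in limma. The dimmer tested probe sets of Glo1 ran from -0.12 to 0.24.

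Of 21 NRF2 pathway genes, 16 were tested, 8 positive and 8 negative, with a median of 0.00. Taldo1 read 740 and 959 in KO and 634 and 575 in WT (0.48 ± 0.14, adjusted p = 0.123 in limma). Nfe2l1 read 598 and 392 in KO and 672 and 640 in WT (-0.44 ± 0.17, adjusted p = 0.247 in limma), and Bach1, a repressor of NRF2 targets, stood at 0.31 ± 0.15 (adjusted p = 0.335 in limma). Nqo1, a quinone reductase and standard NRF2 target chosen after its values were seen, read 127 and 130 in KO and 128 and 128 in WT (0.00 ± 0.19). Of 17 thioredoxin, peroxiredoxin, superoxide and catalase genes, 14 were tested, with a median of 0.03. Msrb1, a methionine sulfoxide reductase, stood at -0.42 ± 0.13 (adjusted p = 0.152 in limma) and Sod2, the mitochondrial superoxide dismutase, at -0.14 ± 0.10 (adjusted p = 0.523 in limma). The dimmer tested probe sets of Sod2 ran from -0.48 to 0.01. The peroxiredoxin Prdx4 disagreed between its probe sets, with 0.24 ± 0.11 at the brighter 1416167_at and -0.66 ± 0.19 at 1416166_a_at, adjusted p of 0.310 and 0.118 in limma.

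**Figure D5:**
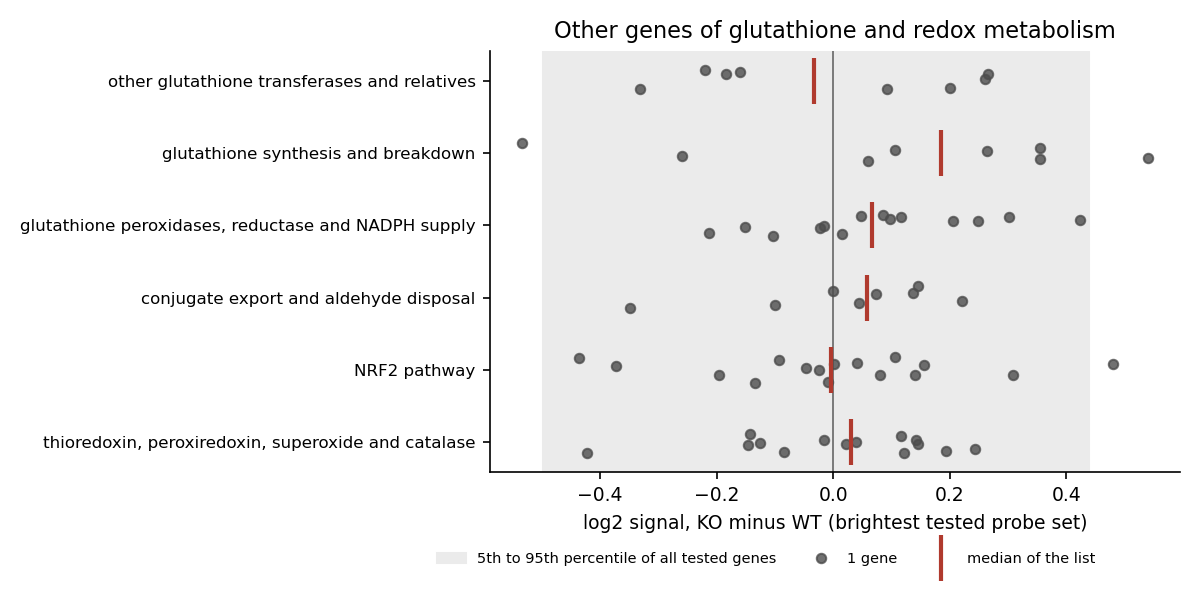
Log2 signal in KO minus WT (horizontal axis) for the 68 tested genes of the 6 lists, 1 point per gene at its brightest tested probe set, with each list's median as a red bar. The medians lie between -0.03 and 0.18, and the grey band spans -0.50 to 0.44, the 5th to the 95th percentile of all 10184 tested genes.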

How the data were processed

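Transcripts of embryonic ventricles were measured on 4 Affymetrix MOE430v2 arrays. Per the file headers and the submitters' processing notes, the authors deposited for each probe set a MAS5 signal intensity on a linear scale, a detection call (Present, Marginal or Absent) and its p-value, and, relative to a baseline array, a signal log ratio on the log2 scale and a change p-value. The sources used here name neither the MAS5 version nor the baseline. The trimmed mean signal (2% off each end) was 150 on all 4 arrays, and the deposited series table held the same signals. The change p-value was not used.

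Control probe sets (64) were left out. Of 45037 others, 34945 name 1 gene in the platform annotation, 932 several and 9160 none, and the GRCm38.p6 gene table gave a current symbol for 34741 of the first. The tested probe sets had a Present call on both KO arrays or on both WT arrays. The log2 signal (4 signals of 0 set to 0.1) was fitted with limma 3.58.1 in R 4.3.3 (lmFit, eBayes with a variance trend), with genotype as the only factor. Differences are KO minus WT ± moderated SE, with two-sided p-values adjusted by Benjamini-Hochberg over all 19065 tested probe sets. The Hdac2 fold is "at least" because KO arrays had no Present call; dim signals were raised, where lower, to that array's lowest Present signal (4.1 to 6.9). A tested gene stands for its brightest tested probe set. Levels of different probe sets were not compared.

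The genes named are the 10 transferases, the 8 neighbours on each side, the 5 nearest to Gstt2, and in each list those past the threshold or else the 3 with the smallest p. The members and lists were chosen with earlier results of these data known. Nothing says that pools shared no animals, so p-values speak of these pools only, and 2 arrays per group limit the precision. With the variance trend, each SE also draws on probe sets of similar signal, not on that gene's spread between pools alone. Alternatives were other scalings, offsets, filters and variance priors, the signal log ratio, the replicate number as a block, and each array left out (on the same tested probe sets).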

Additional observations from a re-analysis of the deposited data

How the results depend on the processing

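With the filter on detection removed, 7 probe sets of the array were higher and 30 lower (73 and 183 as reported), and without a variance trend 4 and 19. The signal log ratio gave 0 and 1. In each of these 3 settings, 0 glutathione transferase probe sets passed, as also among probe sets Present on all 4 arrays, where Gstt2 is not tested. The Gstt2 difference of 2.13 became 1.52 and 0.85 with offsets of 16 and 64 and 1.5 in the signal log ratio. With 1 array left out, it ran from 1.75 to 2.51, transferase probe sets past the threshold from 0 (without KO replicate 2) to 1, the listed genes from 0 to 2 higher and 0 to 1 lower (without KO replicate 1), and all probe sets from 48 to 222 higher and 110 to 428 lower. With the replicate block, the counts were 271 and 450, Gstt2 remained the 1 transferase past the threshold, and 1 listed gene, Taldo1, passed as higher. The labels do not say that equal numbers mark a shared litter or day, and deviations of same-numbered arrays correlated at r = -0.01 over probe sets, so the block was not used in the fit. The cause of these changes was not tested, except that the Present filter on all arrays removes Gstt2 by construction. The scalings moved the median difference by 0.01 (quantile) and -0.03 (median centring). Dim signals limit Gstt2, Gstt3 and the undetected probe sets of Gstm1 and Mgst1.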
